A study of Mus musculus with 8 samples.

Results

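Keratins are the intermediate filament proteins of epithelial cells, and the 54 keratin genes of the mouse were followed here in a pancreatic β-cell line that had been made to express the transcription factor Klf4. They were taken from a table of 55536 genes by symbol, as Krt followed by a number and at most 1 letter, so that keratin-associated protein genes (Krtap) were left out. The cells were MIN6, an insulin-producing line from a mouse insulinoma, with a genotype given as WT. All cultures went through a 48 h transfection with Lipofectamine 3000. The control group (4 libraries) received pcDNA 3 without an insert, and the Klf4 group (4 libraries) received pGloMyc-Klf4. The plasmid names point to unlike backbones, so backbone and Klf4 changed together, and the promoter that drives Klf4 was not stated. Replicates 1 and 2 of each group belonged to batch 1 and replicates 3 and 4 to batch 2. The labels' extraction text speaks of islets, whereas each sample was labelled MIN6. Nothing beyond the term biological replicate says whether the cultures were separate, so the p-values measure the spread between these libraries.

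Type I (acidic) and type II (basic) keratins polymerise only together, as heterodimers of 1 chain of each type, and the type I and type II genes sit in separate clusters. The pair an epithelium makes marks its kind: Krt8 with Krt18 in simple epithelia, including the pancreas, Krt5 with Krt14 in the basal layer of stratified epithelia, Krt1 with Krt10 in the layers above it, and Krt6 with Krt16 or Krt17 at wounds. Klf4 is itself a factor of the upper epidermis and of gut epithelium, and Krüppel-like factors bind CACCC-containing and GC-rich elements.

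Total counts ran from 45417853 to 52731176 per library. Klf4, which checks the labels, had 36.1 to 42.8 CPM (counts per 1000000 counts of the scaled library) in the control libraries and 4529 to 5849 CPM in the Klf4 libraries, with plasmid and endogenous transcripts counted together. Its log2 fold change was 6.79 in batch 1 and 7.16 in batch 2. The 8 β-cell markers summed to 30160 to 38070 CPM in control and 28310 to 38460 CPM in Klf4 libraries, so markers of the labelled cell type were present at high levels in both groups. By edgeR 3 of the 8 were lower (1 without the batch term), where 15.5% of all genes tested were lower. Their log2 fold changes were -0.07 for Iapp, -0.12 for Pdx1 and -0.22 for Slc30a8. With a GC and length offset the sign of Iapp changed, and 4 of the 8 were lower. These are bulk libraries, in which a change in the number of cells that express a keratin and a change in RNA per cell cannot be told apart.

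More keratins were detected in the Klf4 libraries, and they took a larger share of the reads. A control library held counts for 24.8 ± 2.06 keratins and a Klf4 library for 41.3 ± 1.71 (SD, n = 4), and keratins took 0.0162% ± 0.0031 and 0.0421% ± 0.0021 of all counts. Keratins with at least 10 counts numbered 8.75 ± 1.5 in a control and 24.0 ± 1.155 in a Klf4 library. The number of all genes detected per library was not set beside these, so whether the gain is particular to keratins was not tested. Of the 54, 20 passed the filter on low counts and were tested. Higher in Klf4 were 16 of these 20 by edgeR's quasi-likelihood test (adjusted p under 0.05), where 21.1% of the 18266 genes tested were higher. Lower were 0 of 20, where 15.5% of tested genes were lower, and no keratin was lower at an unadjusted p under 0.05, by the DESeq2 Wald test or by limma-voom. The count of 16 has to be read beside the filter. A gene could enter the test through 1 group alone, and 14 of the 20 did so through the Klf4 libraries: 10 reached the filter's level in no control library and 4 (Krt80, Krt15, Krt19 and Krt90) in 1 to 3. Such genes were bound or likely to be higher, so their number is no measure of the family's response. The 6 that reached the filter's level in every control library were Krt7, Krt8, Krt10, Krt18, Krt25 and Krt222, and of these Krt7 and Krt8 were higher and the other 4 were not called. Of the 49 keratins with a count in any library, 42 (85.7%) had the higher mean in Klf4, against 51.5% of all 33674 genes with a count. This share has a like limit. Krt2, Krt79, Krt84 and 10 untested keratins had counts in Klf4 libraries alone and could only be higher, whereas Krt31 could only be lower. Some of the others rest on a few reads, so the share is no measure of the family's response either.

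**Figure D1:**
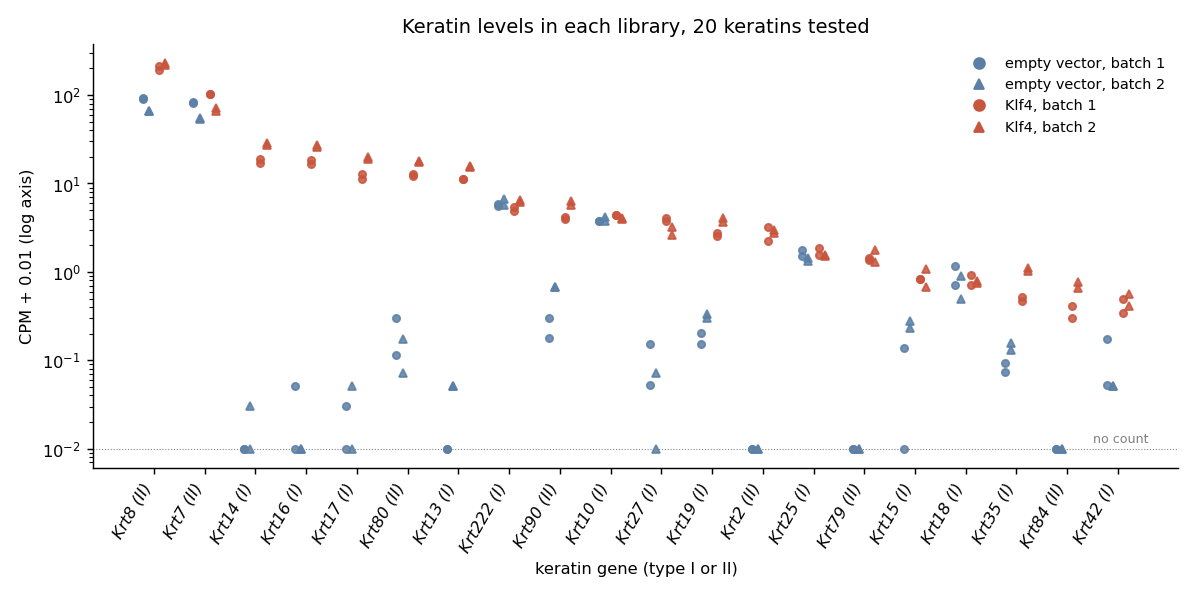
Level of the 20 keratins tested in each of the 8 libraries, as CPM + 0.01 on a log axis, ordered by the mean in Klf4, with points at the dotted line standing for libraries with no count. Krt8 and Krt7 lead in both groups, Krt14, Krt16, Krt17, Krt80 and Krt13 stand between 11.1 and 29.0 CPM in Klf4 libraries and under 0.3 CPM in control libraries, and Krt7, Krt222, Krt10, Krt25 and Krt18 overlap between the groups.

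Stretches of 250 bases directly before the RefSeq transcription start are printed for 4 keratins that were higher (Krt14, Krt13, Krt27, Krt8) and for 3 that were not called (Krt10, Krt25, Krt18). They were chosen since neighbours among them (Krt27 between Krt25 and Krt10, Krt8 beside Krt18) gave unlike values. The sequences are RefSeq's for GRCm38.p6, each 5′ to 3′ on the strand of its gene, with CACCC, or its reverse complement GGGTG, in capitals. The RefSeq start of Krt14 lies 1518 bases and that of Krt8 140 bases downstream of the outermost GENCODE start of the gene. The Krt14 stretch thus lies wholly inside the annotated gene (chr11:100203162-100207548), and part of the Krt8 stretch does too. The other 5 starts lie within 36 bases of the GENCODE start.
Krt14 (chr11:100206031-100206280, minus strand): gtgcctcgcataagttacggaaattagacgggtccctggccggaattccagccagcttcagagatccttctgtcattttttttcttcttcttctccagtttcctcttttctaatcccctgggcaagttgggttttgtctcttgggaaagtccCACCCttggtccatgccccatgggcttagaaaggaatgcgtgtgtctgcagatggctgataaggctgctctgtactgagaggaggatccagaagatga
Krt13 (chr11:100121567-100121816, minus strand): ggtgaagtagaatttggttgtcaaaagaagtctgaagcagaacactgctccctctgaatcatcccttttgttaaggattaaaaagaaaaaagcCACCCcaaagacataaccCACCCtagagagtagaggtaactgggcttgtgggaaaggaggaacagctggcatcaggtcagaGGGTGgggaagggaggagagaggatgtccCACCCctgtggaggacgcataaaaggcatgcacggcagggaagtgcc
Krt27 (chr11:99351119-99351368, minus strand): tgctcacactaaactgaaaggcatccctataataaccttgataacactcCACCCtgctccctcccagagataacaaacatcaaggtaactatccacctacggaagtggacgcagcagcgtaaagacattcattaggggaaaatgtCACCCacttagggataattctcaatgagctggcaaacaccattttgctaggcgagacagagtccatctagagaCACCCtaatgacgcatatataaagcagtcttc
Krt8 (chr15:102004343-102004592, minus strand): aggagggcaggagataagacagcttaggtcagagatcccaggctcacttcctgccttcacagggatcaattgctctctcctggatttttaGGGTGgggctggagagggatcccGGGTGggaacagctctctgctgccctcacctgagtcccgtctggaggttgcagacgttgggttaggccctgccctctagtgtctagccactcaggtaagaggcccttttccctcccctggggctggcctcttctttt
Krt10 (chr11:99389365-99389614, minus strand): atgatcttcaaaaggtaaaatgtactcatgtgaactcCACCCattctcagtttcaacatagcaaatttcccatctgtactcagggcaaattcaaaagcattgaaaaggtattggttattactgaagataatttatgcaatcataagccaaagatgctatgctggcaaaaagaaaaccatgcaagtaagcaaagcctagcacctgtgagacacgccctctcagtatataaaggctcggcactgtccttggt
Krt25 (chr11:99322952-99323201, minus strand): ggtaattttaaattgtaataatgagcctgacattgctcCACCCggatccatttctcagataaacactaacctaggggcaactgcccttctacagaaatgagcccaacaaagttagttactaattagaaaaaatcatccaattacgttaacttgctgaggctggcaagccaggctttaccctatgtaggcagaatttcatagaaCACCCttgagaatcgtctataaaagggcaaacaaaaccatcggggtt
Krt18 (chr15:102027966-102028215, plus strand): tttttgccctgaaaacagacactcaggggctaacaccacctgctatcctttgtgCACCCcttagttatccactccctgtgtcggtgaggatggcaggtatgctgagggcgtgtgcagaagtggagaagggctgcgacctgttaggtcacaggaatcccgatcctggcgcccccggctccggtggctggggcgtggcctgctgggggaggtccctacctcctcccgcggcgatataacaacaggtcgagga
In these stretches the letters CACCC, on either strand, occurred 1 time in that of Krt14, 4 times before Krt13, 3 times before Krt27 and 2 times in that of Krt8. They occurred 1 time before Krt10, 2 times before Krt25 and 1 time before Krt18, so the keratins that were not called carried them as well.

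A promoter window of 300 bases (250 before and 50 after the start) was at hand for 36 of the 54 keratins, 10 of them higher, 3 not called and 23 not tested. Krt15, Krt16, Krt17, Krt19, Krt35, Krt80 and Krt222 were tested and had no window. The RefSeq start lay under 10 bases from the GENCODE start for 24 of the 36, and 1518 and 1360 bases inside the gene for Krt14 and Krt7. CACCC on either strand was present in 30 of the 36 windows (83.3%), in all 10 of the higher keratins, in all 3 of those not called and in 17 of the 23 not tested, against 57.7% of 32544 promoters of the same length. The longer form CCACNCCC, which holds CACCC where N is A or C, was in 8 of 36 (22.2%), against 17.7% of all promoters. The GC box GGGCGG was in 2 of 36 (5.56%), against 35.9%. The TATA box TATAAA was in 19 of 36 (52.8%), against 13.6%, and the AP-1 motif TGANTCA in 1 of 36 (2.78%), against 7.79%. The keratin windows thus held TATAAA more often and GGGCGG less often than promoters at large, at a median GC content of 48.8% against 53% in all promoters, which is a description of letters in a window.

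Krt8 (ENSMUSG00000049382, chr15:101996698-102004482, minus strand), the type II keratin of simple epithelia, was the most abundant keratin in every library and rose 2.7-fold. It had 90.3, 93.4, 66.7 and 65.3 CPM in control replicates 1 to 4 and 212.8, 193.7, 216.5 and 229.1 CPM in Klf4 replicates 1 to 4. Every Klf4 library lay above every control library. The means were 78.9 ± 14.99 and 213.0 ± 14.7 CPM (SD, n = 4), and the log2 fold change was 1.45 (edgeR SE 0.07, adjusted p = 3.00e-13). The control libraries of batch 2 started lower and the Klf4 libraries of batch 2 ended as high or higher, so that the log2 fold change was 1.15 (SE 0.04) in batch 1 and 1.76 (SE 0.05) in batch 2. The difference of 0.61 between batches passed the edgeR interaction test (adjusted p = 1.08e-06), the only one of 20 keratins to do so, where 0.766% of all tested genes did. Klf4 itself had a larger fold change in batch 2, by 0.37 (edgeR adjusted p = 0.0057), and the part of that in the keratin values was not tested. Of the 50-base stretches of Krt8 transcripts, 29.7% also occur in another gene, mainly the pseudogene Krt8-ps, which had 13 to 30 counts in control and 46 to 65 in Klf4 libraries against 3153 to 12090 for Krt8.

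Krt7 (ENSMUSG00000023039, chr15:101411043-101430313, plus strand), a type II keratin of ducts and other simple epithelia, rose by a smaller step. It had 83.5, 81.0, 55.4 and 53.5 CPM in control and 102.8, 103.6, 65.4 and 71.5 CPM in Klf4 libraries. Within each batch both Klf4 libraries lay above both control libraries, but batch 2 of the Klf4 group lay below batch 1 of the control group, so the groups overlapped. The log2 fold change was 0.33 (edgeR SE 0.03, adjusted p = 4.95e-08), and it was 0.33 in batch 1 and 0.33 in batch 2. This call rests on the batch term: without it the log2 fold change was the same and the adjusted p was 0.232.

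Krt18 (ENSMUSG00000023043, chr15:102028180-102032027, plus strand), the type I partner of Krt8, was not called. It is given in full outside the rule for named genes, because of that partnership and after its values were seen. It had 55, 34, 24 and 43 counts in control and 47, 32, 41 and 39 counts in Klf4 libraries, 0.811 ± 0.29 and 0.783 ± 0.0888 CPM (SD, n = 4), and the groups overlapped. Its log2 fold change was -0.03 (edgeR SE 0.26, adjusted p = 0.941), and the ratio of pooled counts was 0.974, with a 95% counting interval of 0.776 to 1.22 (exact; counting error only). Krt8 stood at 40.3 ± 7.66 CPM per kb of exon in control and 108.8 ± 7.48 in Klf4 libraries, and Krt18 at 0.564 ± 0.202 and 0.545 ± 0.0618, so the members of the pair were far apart in level in both groups. Only 0.72% of the 50-base stretches of Krt18 occur in another annotated transcript, and copies outside the annotated transcripts were not searched.

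Krt19, a type I keratin of ducts, rose from low counts. It had 9, 7, 16 and 14 counts in control and 143, 114, 192 and 212 in Klf4 libraries, with no overlap. The log2 fold change was 3.76 (edgeR SE 0.20, adjusted p = 3.67e-13), at 0.237 ± 0.0841 and 3.24 ± 0.712 CPM (SD, n = 4). Krt80, a type II keratin that occurs widely in epithelia, had 5, 14, 8 and 3 counts in control and 665, 548, 911 and 952 in Klf4 libraries. The log2 fold change of Krt80 was 6.58 (edgeR SE 0.17, adjusted p = 1.50e-18), and the ratio of pooled counts was 98.0 (95% counting interval 68.5 to 145.5). An antisense gene over 263 of its exonic bases, Gm35853, rose too, from 2 to 11 counts in control to 59 to 96 in Klf4 libraries, and without a stated strand setting its reads and those of Krt80 cannot be separated in the overlap. Of the 7 keratins classed as simple epithelial, 5 were tested, 4 rose and 1, Krt18, was not called. The other 2, Krt20 and Krt23, had at most 4 counts and no count.

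**Figure D2:**
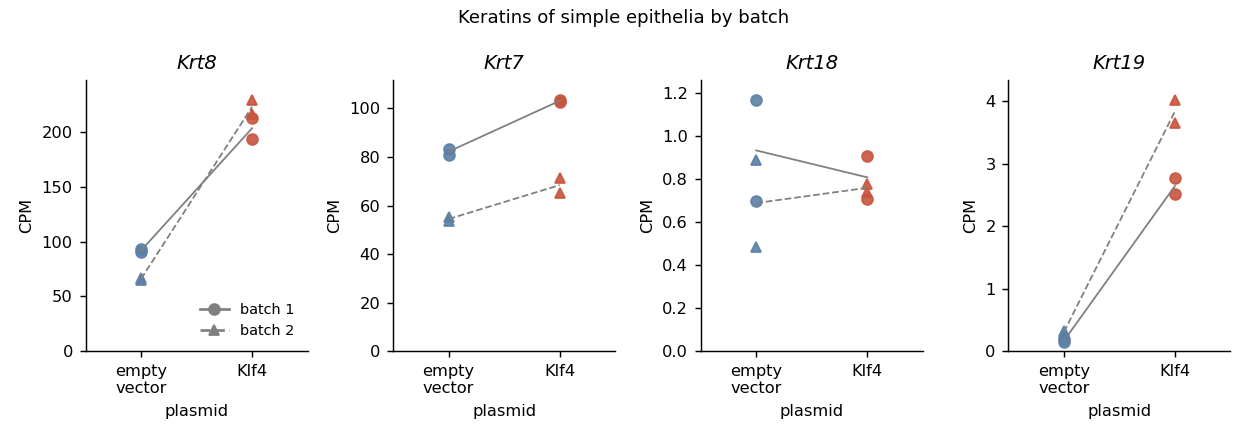
CPM of Krt8, Krt7, Krt18 and Krt19 in the 4 control (blue) and 4 Klf4 libraries (red), each panel on its own linear axis from 0, with circles and solid lines for batch 1 and triangles and dashed lines for batch 2 and lines joining batch means. The lines of Krt7 run nearly in parallel at different heights, those of Krt8 cross because batch 2 starts lower, Krt19 rises in both batches and Krt18 does not separate the groups.

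Krt14 (ENSMUSG00000045545, chr11:100203162-100207548, minus strand), the type I keratin of basal keratinocytes, went from almost no reads to a mean level per kb near that of Krt7. That holds for means over both batches and per kb of all annotated exons, which is 7049 bases for Krt7 and 1758 for Krt14. Per kb, Krt7 stood above Krt14 in both Klf4 libraries of batch 1 and below it in both of batch 2. In CPM Krt7 stood higher in Klf4 libraries, at 85.8 ± 20.2 (SD, n = 4). Krt14 had 0, 0, 0 and 1 counts in control and 969, 766, 1528 and 1452 counts in Klf4 libraries. The Klf4 libraries reached 18.7, 16.9, 29.0 and 27.5 CPM, higher in batch 2 than in batch 1. With 1 control count in all, the ratio of pooled counts was 4506 with a 95% counting interval of 808.4 to 178000, and the log2 fold change of 11.55 (edgeR adjusted p = 8.20e-22) depends on the prior count that edgeR adds. Its usual type II partner, Krt5, did not pass the filter: it had 2, 7, 3 and 7 counts in control and 12, 13, 9 and 11 in Klf4 libraries. Every Klf4 library of Krt5 lay above every control library, yet at 0.225 CPM its mean stayed far under the 23.1 ± 6.11 CPM of Krt14. In a fit without the filter its log2 fold change was 1.15 (edgeR adjusted p = 0.142), and without control replicate 4 it entered the test and was called by edgeR (1.48, adjusted p = 0.042). Without each of the other 4 libraries whose absence let it enter the test, its adjusted p was 0.062 to 0.214. Krt15, another type I keratin of basal cells and of the hair follicle bulge, had 6, 0, 11 and 13 counts in control and 42, 37, 56 and 35 in Klf4 libraries, with no overlap. Its log2 fold change was 2.46 (edgeR SE 0.41, adjusted p = 5.06e-05).

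Krt16 (ENSMUSG00000053797, chr11:100246091-100248902, minus strand) and Krt17 (ENSMUSG00000035557, chr11:100256217-100261029, minus strand), type I keratins that keratinocytes make at wounds and in hyperproliferation, rose from equally few reads. Krt16 had 0, 2, 0 and 0 counts in control and 965, 748, 1370 and 1420 in Klf4 libraries, or 18.7, 16.5, 26.0 and 26.9 CPM in the latter. Krt17 had 0, 1, 2 and 0 counts in control and 670, 515, 1001 and 1044 in Klf4 libraries, or 12.96, 11.4, 19.0 and 19.8 CPM. For both, batch 2 was the higher batch among the Klf4 libraries, and control libraries stood at or near no reads. The ratio of pooled counts was 2152 for Krt16 (95% counting interval 595.4 to 17770) and 1029 for Krt17 (351.8 to 4992). The log2 fold changes, which depend on the prior count, were 10.74 and 9.78 (edgeR adjusted p = 6.43e-21 and 4.08e-20). Krt42, next to Krt17 in the genome, was higher on fewer reads, with 2 to 8 counts in control and 17 to 29 in Klf4 libraries (log2 fold change 2.57 with an edgeR SE of 0.47, adjusted p = 0.000138).

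Some of these counts are uncertain because the genes are near copies of each other. Of its 50-base stretches, Krt16 shares 37.6% with other genes and Krt14 shares 13.9%, 11.01% of all its stretches with Krt16, while Krt17 shares 4.0%. The main sharing partner of Krt16, the gene Gm11597, had 1 count in all 8 libraries together. The type II partners of this class, Krt6a and Krt6b, share over 40% of theirs with each other. Neither passed the filter: both had no count in control libraries, Krt6a had 1, 1, 1 and 2 counts in Klf4 libraries, and Krt6b had 10, 8, 17 and 19. Against a floor of 3 counts per control library Krt6b was at least 4.24-fold higher, and it was called in the fit without a filter (log2 fold change 6.71, edgeR adjusted p = 1.56e-08), whereas Krt6a was not (adjusted p = 0.348). The division of reads within each such pair was not tested.

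Krt13 (ENSMUSG00000044041, chr11:100117327-100121566, minus strand), the type I keratin of the inner mouth and oesophagus, rose from 4 counts in all control libraries together. It had 0, 0, 2 and 2 counts in control and 574, 512, 829 and 819 in Klf4 libraries, or 11.1, 11.3, 15.8 and 15.5 CPM in the latter. The ratio of pooled counts was 653.3 (95% counting interval 254.8 to 2399), with a log2 fold change of 9.18 (edgeR adjusted p = 9.16e-20) that depends on the prior count. None of its 50-base stretches occurs in another annotated gene. Its type II partner, Krt4, was not tested, with no count in control and 9, 3, 12 and 5 counts in Klf4 libraries, and was called in the fit without a filter (log2 fold change 5.83, edgeR adjusted p = 0.00032).

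The type II keratins Krt2 and Krt79 had no count in any control library. Krt2 (ENSMUSG00000064201, chr15:101810689-101818169, minus strand), of the upper epidermis, had 168, 102, 157 and 145 counts in Klf4 libraries and 2.81 ± 0.424 CPM (SD, n = 4), at least 45.3-fold higher than the floor of 3 counts per library (edgeR adjusted p = 2.57e-12). Krt79, of the upper hair follicle, had 62 to 92 counts and was at least 23.4-fold higher (adjusted p = 2.49e-10). Unlike the genes of the Krt14 group, neither was uniformly higher in batch 2. Krt90, also type II, had 8, 14, 33 and 32 counts in control and 204, 189, 335 and 304 in Klf4 libraries, with a log2 fold change of 3.52 (edgeR SE 0.18, adjusted p = 1.85e-13).

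Krt10, the type I keratin of the suprabasal epidermis and the partner of Krt1, was not called. It had 3.78, 3.72, 4.18 and 3.75 CPM in control and 4.45, 4.42, 3.93 and 4.06 CPM in Klf4 libraries, and the groups overlapped. Its log2 fold change was 0.13 (edgeR SE 0.10, adjusted p = 0.370). Krt1 had no count in control and 1, 0, 1 and 4 counts in Klf4 libraries. Of the 13 keratins in the stratified, suprabasal or site-specific class, 5 were tested, 4 rose (Krt2, Krt13, Krt79 and Krt90) and Krt10 was not called. All 13 had the higher mean in Klf4, several on 1 or 2 reads.

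Among the keratins of hair, 2 of 9 in the inner root sheath and companion layer class and 2 of 15 in the hair shaft class were tested. Krt27, of the inner root sheath, had 2, 7, 0 and 3 counts in control and 211, 169, 136 and 169 counts in Klf4 libraries, or 4.08, 3.73, 2.58 and 3.20 CPM. Here batch 1 was the higher batch, the reverse of Krt14. Its log2 fold change was 5.73 (edgeR SE 0.30, adjusted p = 4.22e-13) and the ratio of pooled counts 54.6 (95% counting interval 31.0 to 106.1). Its neighbour Krt25, of the same layer, had 1.49, 1.75, 1.44 and 1.33 CPM in control and 1.88, 1.52, 1.501 and 1.55 CPM in Klf4 libraries, which overlapped (log2 fold change 0.11 with an edgeR SE of 0.16, adjusted p = 0.655). The genes lie 22.6 kb apart and share 11.1% of the 50-base stretches of Krt27. In the hair shaft class Krt35 rose from 3 to 7 counts to 23 to 58 counts (log2 fold change 2.86 with an edgeR SE of 0.34, adjusted p = 4.65e-07). Krt84 rose from no count to 15 to 40 counts, at least 8.43-fold above the floor (adjusted p = 2.56e-07). Krt222, which belongs to none of the classes, had 5.60, 5.89, 5.66 and 6.58 CPM in control and 5.38, 4.86, 6.12 and 6.50 CPM in Klf4 libraries, and these overlapped (log2 fold change -0.06 with an edgeR SE of 0.09, adjusted p = 0.680).

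The 34 keratins that were not tested had at most 19 counts in any library. No count at all was listed for 5 of them, Krt23, Krt33b, Krt34, Krt39 and Krt40, where a count of 0 allows up to 0.0569 to 0.0662 CPM per library. A further 10 had counts in Klf4 libraries alone, 6 of these in all 4, and 18 had counts in both groups. Krt31, of the hair shaft, had 1 count in all, in a control library. The fit without a filter took in 29 of the 34 and called 5 higher and 0 lower by edgeR. Of all 33674 genes in that fit, 4289 were higher and 3081 lower. The 5 were Krt6b, Krt82 (0 counts in control, 10, 9, 3 and 16 in Klf4 libraries), Krt4, Krt78 (1 and 39 counts over the respective groups) and Krt32 (0 and 16).

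Of the 16 higher keratins 9 were type I and 7 type II, and all 9 and 5 of the 7 had entered the test through the Klf4 libraries, so these numbers give no comparison of the types. In the control libraries type II led by far. Summed per kb of exon, type I stood at 5.55, 5.38, 5.28 and 5.85 CPM per kb and type II at 58.4, 59.7, 42.3 and 41.5. In the Klf4 libraries type I stood at 47.6, 43.4, 64.4 and 65.0 and type II at 129.2, 119.5, 127.4 and 134.8. Both sums lay higher in every Klf4 library than in any control library, and type I moved by the larger factor: the ratio of type I to type II was 0.113 ± 0.0244 in control and 0.430 ± 0.0745 in Klf4 libraries (SD, n = 4), with no test since the members were chosen. In Klf4 libraries it was higher in batch 2 (0.506 and 0.482) than in batch 1 (0.368 and 0.364). Krt222 made up much of the type I sum in control, and without it that sum was 3.71 ± 0.159 in control and 53.4 ± 10.99 in Klf4 libraries. Krt13, Krt14, Krt16 and Krt17 together formed 0.56% ± 0.397 of the type I sum in control and 80.7% ± 3.41 in Klf4 libraries, whereas Krt7 and Krt8 formed 99.1% ± 0.25 and 94.7% ± 0.614 of the type II sum. The type I gain lay in genes at or near 0 in control, and most of the type II gain in Krt8, the leading gene of both groups.

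**Figure D3:**
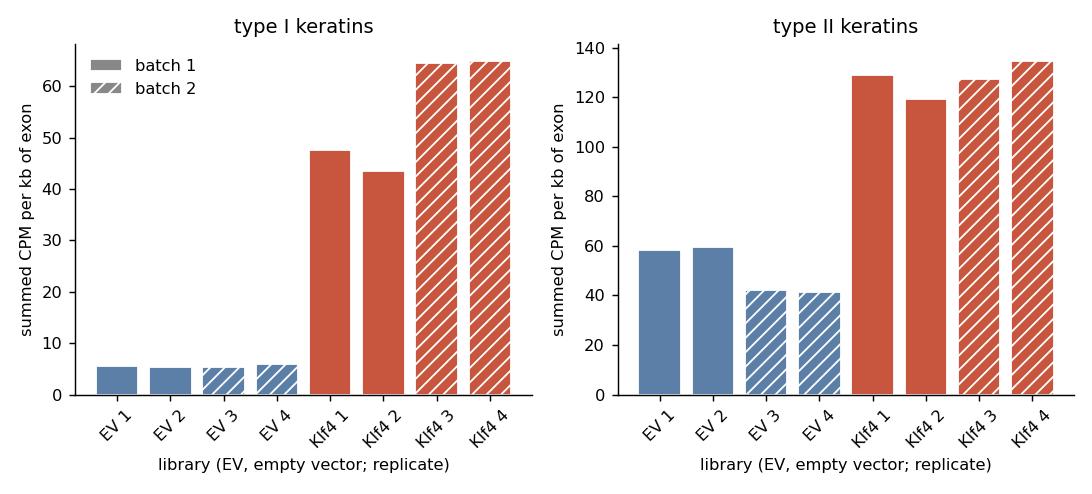
Summed level of the 28 type I keratins (left) and the 26 type II keratins (right) in each library, in CPM per kb of exon on linear axes from 0, with plain bars for batch 1 and hatched bars for batch 2. Type I stands at 5.28 to 5.85 in the 4 empty-vector libraries and at 43.4 to 65.0 in the Klf4 libraries, and type II goes from 41.5 to 59.7 up to 119.5 to 134.8.

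On this per-kb scale the order of the genes changed. In control libraries Krt8 (40.3 ± 7.66) was followed by Krt7 (9.70 ± 2.28), Krt10 (1.82 ± 0.102), Krt222 (1.80 ± 0.137), Krt25 (0.754 ± 0.0892) and Krt18 (0.564 ± 0.202). Of these neighbours, Krt10 and Krt222 did not differ beyond their spread, nor did Krt25 and Krt18. In Klf4 libraries Krt8 (108.8 ± 7.48) was followed, by mean, by Krt16 (14.1 ± 3.33), Krt14 (13.1 ± 3.48), Krt7 (12.2 ± 2.87) and Krt17 (10.2 ± 2.74). Next came Krt13 (7.37 ± 1.41) and Krt80 (2.36 ± 0.474). These SDs include the difference between batches. Krt16 stood above Krt14, and Krt14 above Krt17, in every Klf4 library. Krt7 stood above Krt16, Krt14 and Krt17 in both Klf4 libraries of batch 1 and below them in both of batch 2. Krt10 moved from the third place to the 10th without a change in its own level that passed the test. These places depend on the length of all annotated exons, which is 7049 bases for Krt7, 1758 for Krt14 and 1565 for Krt16. In CPM Krt8 and Krt7 led in both groups.

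The position of the higher keratins is given as a description, without a test and looked at after the values were seen. Every keratin lay on chromosome 11 or 15. The 27 type I genes of chromosome 11 fall into 2 stretches, 468.0 kb apart in the GENCODE annotation of GRCm38, with the Krtap genes between. The first, from Krt222 to Krt40 (chr11:99232761-99543158), holds 12 keratins, of which 4 were tested and 1 was higher, Krt27. The second, from Krt33a to Krt42 (chr11:100011195-100269871), holds 15, of which 8 were tested and were higher. All 8, and Krt27, had entered the test through the Klf4 libraries, while Krt222, Krt25 and Krt10 of the first stretch reached the filter's level in every control library, so these counts follow in large part from the filter. The summed mean level of all 15 keratins of the second stretch went from 0.909 to 80.0 CPM, and that of all 12 of the first from 11.5 to 15.1 CPM. Chromosome 15 (chr15:101347444-102032027, Krt80 to Krt18) holds the 26 type II genes and Krt18, and the 7 type II genes tested there were higher, 5 of them having entered through the Klf4 libraries. Neighbours could differ: Krt8 and Krt18 lie 23.7 kb apart, Krt27 and Krt10 34.2 kb, and Krt80 and Krt7 40.9 kb.

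**Figure D4:**
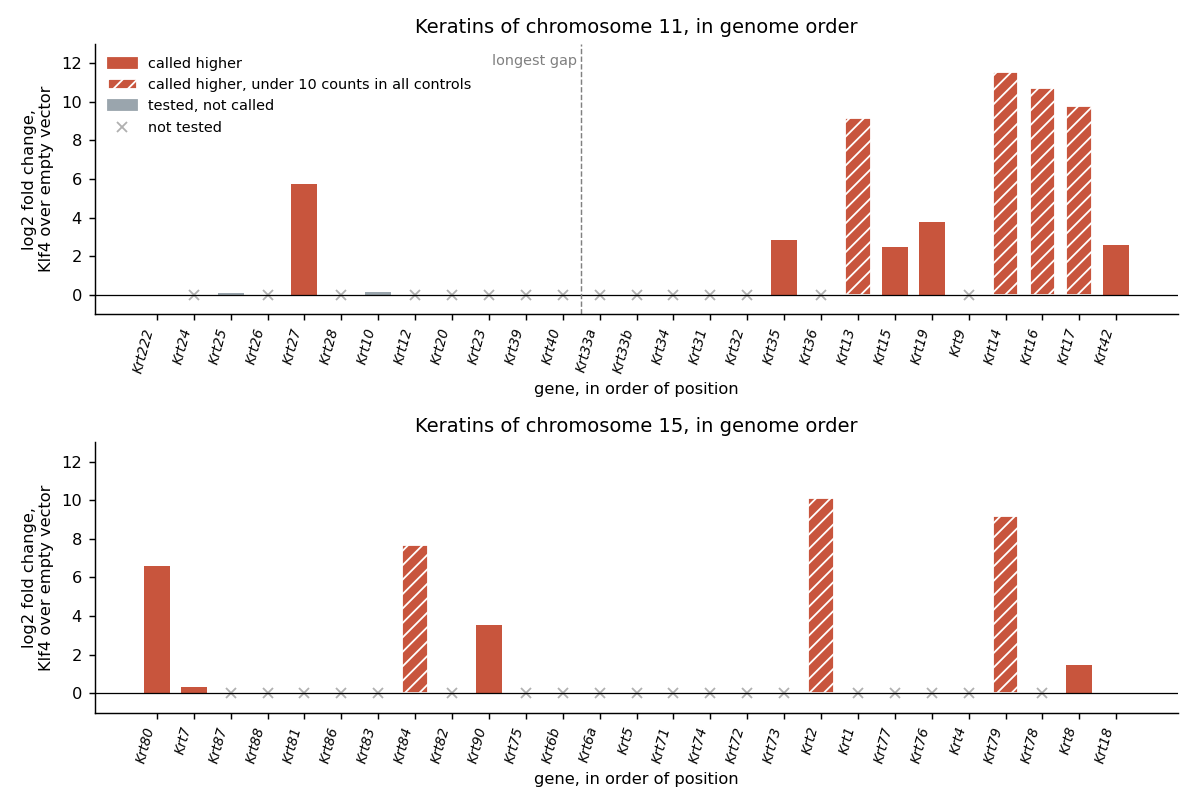
Log2 fold change (Klf4 over empty vector) of the keratins of chromosome 11 (top) and chromosome 15 (bottom), as bars in genome order on a linear axis, with crosses for keratins not tested and hatching where the control libraries together held under 10 counts, so that the height depends on the prior count. Right of the dashed line, the longest gap between keratins on chromosome 11, the 8 tested genes were higher and had passed the filter through the Klf4 libraries; left of it the 3 not called had passed it in every control library too.

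The protein-coding genes within 500 kb that are neither keratins nor Krtap genes gave a background for these positions. Around the chromosome 11 keratins 34 were tested, 10 were higher (29.4%) and 6 lower (17.6%), with a median log2 fold change of 0.03. These shares lie near the 21.1% and 15.5% of all genes tested. Around the chromosome 15 keratins 28 were tested, 14 were higher (50%) and 2 lower (7.14%), with a median of 0.16, beside a median of -0.01 over all genes tested. On chromosome 11 the largest rise was that of the potassium channel gene Kcnh4 (log2 fold change 2.30, edgeR adjusted p = 1.38e-10) and the largest fall that of the clock repressor gene Nr1d1 (-0.36, adjusted p = 1.43e-05; -0.54 in batch 1 and -0.18 in batch 2). On chromosome 15 they were, by fitted log2 fold change, Igfbp6, which encodes a binding protein of insulin-like growth factors (9.54, adjusted p = 2.39e-19, from 0.0154 to 13.4 CPM), and the translation factor gene Eif4b (-0.12, adjusted p = 0.00188). Igfbp6 passed the filter through the Klf4 libraries. Without the batch term the lower genes were 3 on chromosome 11 and 0 on chromosome 15. Of the 58 Krtap genes, 45 had no count and 1 was tested, Krtap16-1, which edgeR did not call (log2 fold change -0.22, adjusted p = 0.605, 0 at an unadjusted p under 0.05).

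Genes for proteins that hold keratin filaments together or to junctions were called higher in more cases than lower. Of 18 genes listed as keratin linkers and bundling partners, 14 were tested, 10 were higher and 0 lower by edgeR, with a median log2 fold change of 0.88 (1 was lower at an unadjusted p under 0.05, and 0 by the DESeq2 Wald test or limma-voom). Beside them 21.1% of all genes tested were higher and 15.5% lower, at a median of -0.01. Eppk1, Pkp1 and Pkp3, with 0 to 11 counts in control libraries, passed the filter through the Klf4 libraries. They were bound or likely to be higher, so the count of 10 is no measure of the list's response. The other higher genes reached the filter's level in every control library. The largest rise was that of Eppk1, the cytolinker epiplakin, from 0.0995 ± 0.0915 to 13.7 ± 0.926 CPM (SD, n = 4). On the log2 scale this was 7.08 (edgeR SE 0.19, adjusted p = 2.21e-18). The plakophilin genes of the desmosome plaque Pkp1 (7.04) and Pkp3 (6.74) rose by nearly as much on the log2 scale, and Pkp2 by 0.55. Desmoplakin (Dsp), which anchors keratins at desmosomes, rose from 5.73 ± 1.91 to 25.4 ± 0.986 CPM, which is 2.18 on the log2 scale (edgeR adjusted p = 7.15e-14). The other 5 that rose, with their log2 fold changes, were Evpl (1.48), Plec (1.10), Tchh (0.96), Ppl (0.81) and Jup (0.34), while Dst, Fam83h, Macf1 and Tchp were not called. Without the batch term the call of Pkp2 was lost. In this list 4 genes passed the edgeR interaction test, each with the higher value in batch 2: Dsp had 1.82 in batch 1 and 2.60 in batch 2, Plec 0.84 and 1.35, Evpl 1.26 and 1.72, and the uncalled Macf1 -0.20 and 0.20.

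Filament genes outside the keratins were mixed. Of 15 listed, 13 were tested, 5 were higher (38.5%) and 3 lower (23.1%), beside 21.1% and 15.5% of all genes tested, with a median log2 fold change of 0.02. Among the 5, Vim and Bfsp1 (0 to 7 counts in control libraries) passed the filter through the Klf4 libraries and were bound or likely to be higher. Vim, the vimentin of mesenchymal cells, rose from 0.114 ± 0.0282 to 2.57 ± 0.397 CPM (SD, n = 4), which is 4.47 on the log2 scale (edgeR adjusted p = 8.51e-13). Also higher were the lens filament gene Bfsp1 (4.35), desmin (Des, 3.68), peripherin (Prph, 1.73) and lamin A (Lmna, 0.68 over both batches, 0.53 in batch 1 and 0.84 in batch 2). Lower were the neuronal filament genes Nefh (-0.16, edgeR adjusted p = 0.00034), Ina (-0.13) and Nefl (-0.10), and these 3 calls were lost without the batch term.

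Factors that bind keratin genes in epithelia were listed as 16 genes, Klf4 among them, and 12 of 14 tested were higher and 0 lower by edgeR, the DESeq2 Wald test and limma-voom (0 at an unadjusted p under 0.05), with a median log2 fold change of 1.42, beside 21.1% of all genes tested that were higher and a median of -0.01. The 12 include Klf4, which was transfected. Tfap2a, Tfap2c, Grhl2 and Ovol1, with 0 to 15 counts in control libraries, passed the filter through the Klf4 libraries and were bound or likely to be higher. The count of 12 is thus no measure of the list's response. Tfap2a, a factor of the epidermis, had no count in control and 1.80 ± 0.355 CPM in Klf4 libraries (SD, n = 4, with an edgeR adjusted p = 3.11e-11). Ovol1 rose from 0.207 ± 0.122 to 8.41 ± 1.41 CPM (log2 fold change 5.32, adjusted p = 1.56e-15), Cebpa by 3.19 on the log2 scale, and Grhl2 and Grhl3 by 1.88 each. Klf5 (0.16) and Ehf (0.21) were not called. Trp63, the defining factor of basal keratinocytes, had no count in any of the 8 libraries.

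Markers of other cell types moved beside the keratins, and their part in the keratin values was not tested. The 7 keratinocyte markers, which include Krt5 and Krt14, summed to 1.09 to 3.33 CPM in control and 32.5 to 50.1 CPM in Klf4 libraries, and all 5 tested rose: Krt14, Dsg3, Lgals7, Itgb4 and, with the batch term, Col17a1. Trp63 stood at 0 throughout. The 7 duct markers, which include Krt7 and Krt19, summed to 57.1 to 88.6 and 74.2 to 112.6 CPM, and 4 of 5 tested rose (1 of 5 without the batch term). The 6 mesenchyme markers summed to 4.37 to 5.61 and 23.8 to 30.6 CPM, and 4 of 5 tested rose, led by decorin (Dcn, 0 to 5 counts in control, 655 to 1124 in Klf4 libraries), while Lum had no count in any library. Acinar markers summed to 7.52 to 11.8 and 7.98 to 13.2 CPM and leukocyte markers to 6.34 to 6.95 and 6.33 to 7.95 CPM, with none of 1 and none of 3 tested genes called by edgeR, the DESeq2 Wald test or limma-voom, nor at an unadjusted p under 0.05. Endothelial markers summed to 4.10 to 4.41 and 5.003 to 5.28 CPM, and 1 of 3, Cdh5, rose. Beside these counts 21.1% of all genes tested were higher and 15.5% lower. Krt14, Dsg3, Lgals7, Itgb4, Krt19, Dcn, Pdgfra and Cdh5 passed the filter through the Klf4 libraries. They were bound or likely to be higher, so the counts of markers that rose are no measure of a cell type.

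Within each batch 16 of 20 keratins were higher and 0 lower, where 15.8% of tested genes were higher in batch 1 and 19.6% in batch 2. Since 14 of the 16 had entered through the Klf4 libraries of both batches, these counts are read for Krt7 and Krt8 alone, which were higher in each batch. Over all 8 libraries 15 of 20 keratins stood above the control libraries without overlap, where 17.2% of tested genes did, and Krt7 was the called keratin that did not. All of these 15 but Krt8 had entered through the Klf4 libraries and were bound or likely to stand above. This count is thus read for Krt8 alone. Inside each batch, with 2 libraries per group, Krt7 and Krt8 stood above without overlap, as did the 14 that entered through the Klf4 libraries. The share of all genes that did so inside each batch was not counted. The Klf4-library levels of Krt14 in batch 2 and of Krt27 in batch 1 were the higher ones, and with 1 and 12 control counts their fold changes cannot be compared between batches.

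The genes most like the leading keratin of each type were sought over the 8 libraries after group means had been taken out, among 10082 genes with a mean of at least 10 CPM. Such likeness is over libraries that share their batch. With 0, 0, 0 and 1 control counts, Krt14 varied almost only among the 4 Klf4 libraries. There it varied mainly by batch (18.7 and 16.9 CPM in batch 1, 29.0 and 27.5 CPM in batch 2), so its r values describe little more than that difference. For Krt14 the 5 highest Pearson r were 0.99 for Ckb and Sfn, 0.984 for Ndrg4, 0.981 for Klf11 and 0.975 for Clic4. For Krt8 they were 0.987 for Kirrel2, 0.976 for Map3k5, 0.974 for Dgat2 and 0.973 for Tuba1c and Lmna.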

How the data were processed

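PolyA RNA of 8 MIN6 libraries (4 control, 4 Klf4) was sequenced. The deposited values are read counts per gene, which the authors made with STAR and featureCounts on mm10, per the submitters' processing notes. Versions and the strand setting were not given in the sources used here. All 55536 gene IDs matched GENCODE M21 (GRCm38), from which positions, exon lengths and shared 50-base stretches were taken. Promoter sequences are RefSeq's, and for 28 of 36 windows the bases after the start occur in a GENCODE transcript.

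Here edgeR 4.0.16 (R 4.3.3; TMM factors 0.9964 to 1.005) was fitted over 18266 genes that passed filterByExpr (minimum count 10), with group and batch as terms, a quasi-likelihood test and Benjamini-Hochberg adjustment. The filter left out 37270 genes. CPM values are counts per 1000000 of these scaled library sizes. SE is the absolute log2 fold change over the square root of F. The test was checked on simulated data. DESeq2 1.42.0 and limma 3.58.1 (voom) were alternatives, as were other factors, filters, terms and left-out libraries. Intervals and floors of 3 counts cover counting error only.

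Same-numbered libraries deviated together (r = 0.639, 0.480, 0.590 and 0.552 over 10468 genes), and the numbers mark the batch. Replicates differed beyond sampling noise (chi-square per degree of freedom 4.23 to 5.71 within and 17.4 to 23.3 between batches). The members and gene lists were chosen with earlier results of these data known. Values in every library are given for keratins with a mean of at least 1 CPM, besides the 5 largest and 3 smallest called changes. Further genes of the lists were named as those with the largest changes in each direction.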

Additional observations from a re-analysis of the deposited data

Results flagged for a closer look

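A library that stands far from the other 3 of its group was looked for in 48 sets of 4 values, and 5 were found. The check's rate of 1 in 20, or 2.4, assumes 4 values of 1 kind. Each set here holds 2 batches, and a set with a single library above 0 is flagged whatever its count. The 5 cannot be judged against that rate. Among the Klf4 libraries Krt25 stood at 1.88 CPM in replicate 1 and at 1.501 to 1.55 CPM in the others. Among the control libraries Krt10 stood at 4.18 CPM in replicate 3 and at 3.72 to 3.78 CPM in the others. The other 3 cases rest on few reads: Krt14 at 0.0207 CPM (1 count) in control replicate 4 against 0 elsewhere, Krt16 at 0.0411 CPM (2 counts) in control replicate 2 against 0 elsewhere, and Krt42 at 0.164 CPM in control replicate 2 against 0.0405 to 0.0425 CPM.

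The response differed between the batches by edgeR's interaction test for Krt8, by 0.61 on the log2 scale (batch 2 minus batch 1), and for Klf4, by 0.37 in the same direction. Among the genes of the other lists the log2 fold change was also higher in batch 2 for Dsp by 0.78, Plec by 0.51, Evpl by 0.45, Macf1 by 0.40 and Lmna by 0.31. The fall of Nr1d1 was smaller in batch 2, a difference of 0.36, and the rise of Tns4, a focal adhesion gene beside the chromosome 11 keratins, was smaller in batch 2, a difference of -1.82. Control Krt8 was lower in batch 2 than in batch 1, and whether the Krt8 difference goes with the Klf4 level, the starting level or another feature of the batch was not tested.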

How the results depend on the processing

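The count of 16 keratins higher was 15 to 16 under no batch term, a replicate block (16, with no keratin call changed), other scaling factors, a GC and length offset, the DESeq2 Wald test, limma-voom, a log2 fold change over 1 and an adjusted p under 0.01. Krt7 was the call lost, without the batch term (log2 fold change 0.33, adjusted p = 0.232) and in the test against a log2 fold change of 1. It was 21 of 49 without a filter, where 4289 of all 33674 genes were higher. At 1 CPM in 4 libraries it was 12 of 15, where 3246 of all 14338 genes were higher and Krt15, Krt35, Krt42 and Krt84 were not in the fit. Leaving out each library in turn gave 16 to 17 keratins higher and 0 to 0 lower, with 3443 to 3769 genes higher and 2446 to 3305 lower over all genes. The 2828 genes lower became 1159 without the batch term and 1638 with factors from abundant genes, and calls were 57.7%, 71.8% and 72.8% higher, respectively; the replicate block gave 3724 higher and 2560 lower. Krt18, never called, changed sign to 0.00 with factors from abundant genes, 0.01 by limma-voom, 0.15 without control replicate 1, 0.09 without control replicate 4 and 0.06 without Klf4 replicate 2 (-0.22 without control replicate 3); the cause was not tested. The type I to type II ratio was 0.103 to 0.120 in control and 0.405 to 0.452 in Klf4 with each library left out, and 0.295 in Klf4 on plain CPM, where long genes weigh more. With a prior count of 2 the log2 fold changes of Krt14, Krt16 and Krt2 were 8.99, 8.77 and 6.14. Genes at or near 0 counts in control limit these folds, and keratins under about 10 counts per library were not tested.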
